A study of Equus caballus with 10 samples.

Results

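The HOX genes of equine tenocytes were described here in 10 RNA-sequencing libraries. They were taken as every row of the deposited expression table whose gene name is HOX followed by a cluster letter from A to D and a number, and 38 of the 29196 rows were found in this way: 11 genes of HOXA and 9 each of HOXB, HOXC and HOXD. The choice rests on names and uses no measured value. The cells were tendon cells from the superficial digital flexor tendon of 5 horses, 1 line per horse, called lines 1 to 5 in what follows. They had been passaged several times before they were grown for 14 days in 3D collagen type 1 gels. All 10 cultures received a daily dose of 100 nM PF-06650833, which inhibits the kinase IRAK-4. In 5 libraries (PF-06650833 alone) nothing else was added, and in the other 5 (IL-1β plus PF-06650833) the inflammatory cytokine IL-1β was also given at 17 ng/ml every 3 to 4 days. Each line gave 1 library to each group, so that a difference between the groups is the difference that IL-1β makes in the presence of the inhibitor. Several gels of a condition were harvested together for RNA, and the sources used here do not say whether a tendon came from a forelimb or a hindlimb. Control and IL-1β alone cultures were not analysed here.

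HOX genes encode homeodomain transcription factors that give cells their address along the body axes. They lie in 4 clusters, and within a cluster the gene number follows the position: low numbers are switched on early and towards the head, and high numbers late and towards the tail. In the developing limb the high-numbered genes of HOXA and HOXD are used a second time, from shoulder to digits, and the genes numbered 13 belong to the hand and foot. Fibroblasts of adult tissues are known to keep a HOX pattern of the site they came from, held in place by Polycomb and Trithorax proteins, and HOX proteins bind DNA together with cofactors of the TALE family (PBX, MEIS, PKNOX).

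The deposited values are log2 values with a stabilized variance, on which 0 reads is 3.433. Inverting the transformation gave between 26191030 and 36093461 reads per library, and the limit that a count of 0 reads allows, 3 reads, was 0.0831 to 0.115 RPM (reads scaled to a library of 1000000 reads). Reads given for a gene are such estimates, rounded and not divided by transcript length, and any value above 3.433 was taken as reads, even under 1 read. The limit covers counting error only. Correlations between libraries over all genes were 0.966 to 0.991. Of the marker genes of tendon cells, 8 of the 9 in the table had reads in all 10 libraries, and their summed level ranged from 22615 to 36512 RPM without IL-1β and from 6534 to 26003 with it. COL1A1 and COL1A2, with up to 687376 and 522041 reads, weigh most in this sum. By the thresholds given below, 3 of the 8 tested were called lower with IL-1β and 0 higher, beside 6.68% of all tested genes. These were SCX, MKX and TNC (log2 fold change -3.24, -2.85 and -2.04, adjusted p 0.000611, 0.00554 and 0.0135 in limma). Of the 8 fold changes 7 were below 0 and 1 was above it, that of DCN. DCN was higher with IL-1β in 5 of 5 lines (log2 fold change 1.01, adjusted p 0.268 in limma) and was not called. In a limma fit with the line as a replicate block 5 of the 8 were called lower and 0 higher, beside 8.26% of all tested genes. COL1A1 and COL1A2 were among these (log2 fold change -1.38 and -1.28, adjusted p 0.0147 and 0.0169 in limma). DCN was again not called (adjusted p 0.0529 in limma). Tenomodulin (TNMD), a late tendon marker, had 0 reads in every library. Endothelial markers summed to 0.0956 to 1.22 RPM without and 0.0727 to 0.690 with IL-1β, glial and neuronal markers to 0.156 to 0.330 and 0 to 0.225, and leukocyte markers to 1.41 to 48.0 and 4.95 to 52.7. Muscle markers were at 4.32 to 43.8 RPM without IL-1β and 0.443 to 3.93 with it, with MYOD1 and MYF5 at 0 throughout. Epithelial markers were at 14.3 to 40.5 and 1.14 to 11.6, with EPCAM and KRT5 at 0 throughout. The muscle sums thus rest on DES and ACTA1, and the epithelial sums on CDH1, since KRT14 had at most 4 reads. The muscle and epithelial ranges did not overlap between the groups, which was so for 12.7% of all single genes tested. DES and CDH1 were called lower (log2 fold change -2.98 and -2.22, adjusted p 0.00546 and 0.0136 in limma). With the line as a replicate block ACTA1, with reads in 8 libraries, was called lower as well (adjusted p 0.0157 in limma). Of the leukocyte markers CD14 had reads in 6 libraries, and CD68, a marker of macrophages, was higher with IL-1β in 5 of 5 lines (log2 fold change 1.70, adjusted p 0.00795 in limma). The other leukocyte markers, PTPRC and CSF1R, had reads in 1 library each, at most 3 and 1, and were not tested. The part of any of these cells in the HOX values was not tested. In bulk RNA, fewer cells of a type and less RNA per cell cannot be told apart.

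Expression was almost entirely from HOXA and HOXD. Reads were found in all 10 libraries for all 11 HOXA genes and for 7 of 9 HOXD genes, but for 2 of 9 HOXC genes and for none of the 9 HOXB genes. In all, 20 HOX genes had reads in every library, 13 in some, and 5 (HOXB1, HOXB5, HOXB7, HOXB8 and HOXC12) in none. The HOX genes together had 9484 to 12800 reads per library without IL-1β and 9098 to 15607 with it. Of these reads, HOXA took 32.4% to 53.5% and HOXD 45.9% to 67.4%, whereas HOXC took 0.0505% to 0.578% and HOXB 0% to 0.170%. The heat map of 37 of the genes by library shows these bands.

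**Figure D1:**
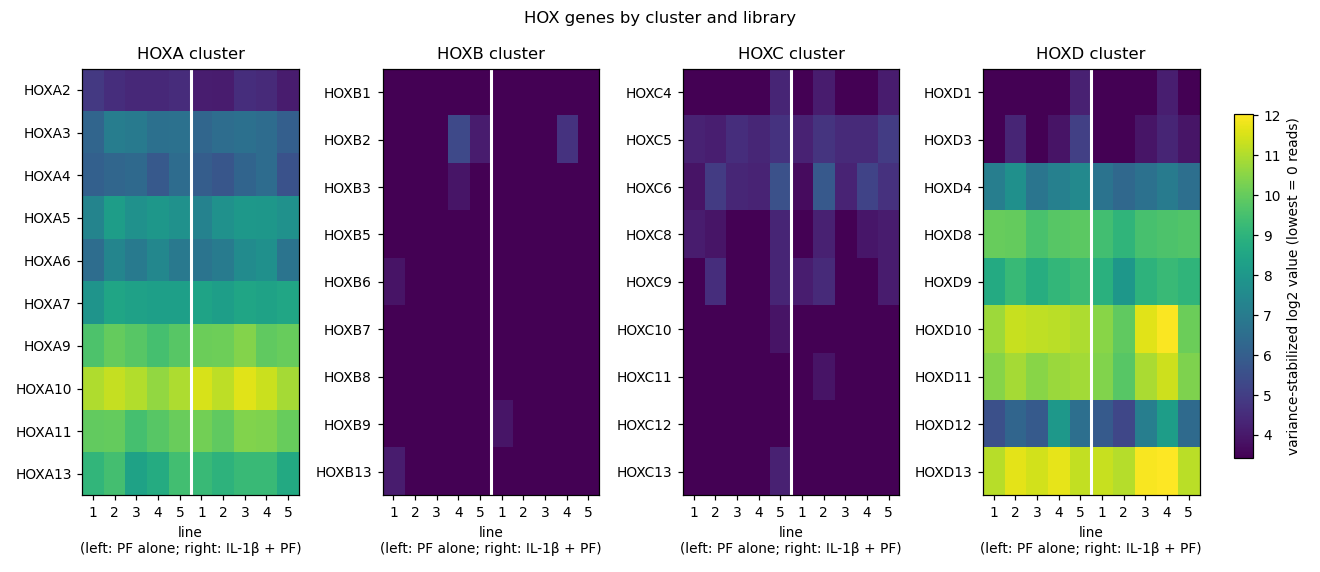
Variance-stabilized log2 values (colour, from 3.433 for 0 reads upwards) of 37 HOX genes in each cluster (rows, in order of gene number) and library (columns: lines 1 to 5 with PF-06650833 alone left of the white line, lines 1 to 5 with IL-1β plus PF-06650833 right of it). HOXA and HOXD are lit from HOXA3 and HOXD4 onwards in all 10 libraries, while most of HOXB and HOXC stays at or near 0 reads. The highest counts of HOXB and HOXC are 20 and 33 reads. In line 2 with IL-1β, HOXC6 with 33 reads lies above HOXA4 with 30 and HOXD12 with 17.

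Within HOXA, reads were few at the low-numbered end. HOXA2, which patterns the hindbrain and the second pharyngeal arch, had 2 to 10 reads per library. HOXA3 had 40 to 88 reads, HOXA4 25 to 65, HOXA5 106 to 212, HOXA6 61 to 151 and HOXA7 188 to 303. From HOXA9 onwards the counts were higher: HOXA9 had 641 to 1193 reads, HOXA10, a gene of the upper limb segment, 1449 to 2775, and HOXA11, a gene of the middle limb segment, 530 to 1164. HOXA13, which acts in the hand and foot, had 233 to 647 reads.

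Within HOXD, the break lay between HOXD3 and HOXD4. HOXD1 had reads in 2 libraries, 3 in line 5 with PF-06650833 alone and 2 in line 4 with IL-1β, and HOXD3 had 0 to 14 reads. HOXD4 had 53 to 150 reads, HOXD8 447 to 889, HOXD9 203 to 601, HOXD10 844 to 2856 and HOXD11 761 to 1869. HOXD13, the gene of the digits that lies last in the cluster, had 1854 to 3414 reads, while its neighbour HOXD12 had 17 to 217. HOXD12 thus had fewer reads than the genes on both sides of it in every library. EVX2, which lies just beyond HOXD13, had 116 to 448 reads, whereas EVX1, its counterpart beyond HOXA13, had at most 3.

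HOXB and HOXC were silent or close to it. The highest count of a HOXB gene was 20 reads of HOXB2 in line 4 with PF-06650833 alone, and the same line had 6 reads of HOXB2 with IL-1β, whereas the other lines had 0 to 2. HOXB3, HOXB6 and HOXB9 had 1 read in a single library each, and HOXB13, a gene of the tail bud and prostate, had 2 reads in line 1. HOXB4 was not analysed here. HOXC6, a gene of the trunk, had the highest count of its cluster, 33 reads in line 2 with IL-1β, and HOXC5 had 2 to 11 reads, HOXC8 0 to 4 and HOXC9 0 to 5. HOXC4 had at most 4 reads. HOXC10 and HOXC11, which are used in hindlimb development, had 1 read in 1 library each, in line 5 with PF-06650833 alone and in line 2 with IL-1β, and HOXC13, a gene of hair and nail, had 3 reads in line 5 with PF-06650833 alone. Counts up to 3 reads are at the limit of what this depth can show.

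The genes of a cluster overlap in part. In RefSeq models of the horse assembly TB-T2T, 18 HOX genes lie in spans that overlap another HOX gene, among them HOXA3 with HOXA4, HOXA5 and HOXA6, HOXC4 with HOXC5 to HOXC9, and HOXD9 with HOXD10 and HOXD11. How the shared stretches were divided between these genes was set in the authors' transcript quantification and was not examined here.

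No HOX gene passed the thresholds for a change with IL-1β. All genes of the table with reads in 5 or more libraries were tested together with limma. A gene was called differentially expressed if its Benjamini-Hochberg adjusted p was below 0.05 and its log2 fold change was 1 or more in either direction. Of the 38 HOX genes 23 were tested (11 HOXA, 4 HOXC and 8 HOXD), and 15 had too few libraries with reads, among them all 9 of HOXB. By this rule 0 of 23 were called, where 6.68% of the 17992 tested genes were (1202), and with the line as a replicate block 0 of 23 were called, where 8.26% of all tested genes were (1486). On the adjusted p of limma alone, without a minimum fold change, 0 HOX genes were higher and 0 lower, where 7.57% of all tested genes were higher and 7.89% lower. At an unadjusted p below 0.05 there were 4 (HOXA9, HOXA11, HOXD4 and HOXD8), 17.4% of those tested, where 29.7% of all tested genes were.

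The fold changes of the tested HOX genes lay between -0.60 for HOXD4 and 0.39 for HOXA9 on the log2 scale, 11 were above 0 and 12 below it, and their median was -0.01, as it was over all tested genes. The median size of the change regardless of sign was 0.20 on the log2 scale, against 0.25 over all tested genes. For 19 of the 23 genes, or 82.6%, the 95% interval of the log2 fold change lay within a change of 1 in either direction, where this was so for 72.3% of all tested genes. The exceptions were HOXC6, HOXD4, HOXD10 and HOXD12, for which a change of the size of the threshold was within the interval. With the line as a replicate block the intervals of 22 of the 23 genes (95.7%) lay within this range, against 77.7% of all tested genes, and HOXD4 was the exception. The log2 of back-transformed counts, taken with a pseudocount of 1, compresses the low genes less, but still to some degree. On that scale the intervals of 13 of the 23 (56.5%) lay within this range without and with the block. Over all tested genes this was so for 51.1% and 55.1%. In 0 of the 23 HOX genes did the 2 groups of libraries fail to overlap, where this was so for 12.7% of all tested genes. In 3 of the 23 the values went the same way in all 5 lines, where 32.7% of all tested genes did so: HOXA9 upwards and HOXD4 and HOXD8 downwards.

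**Figure D2:**
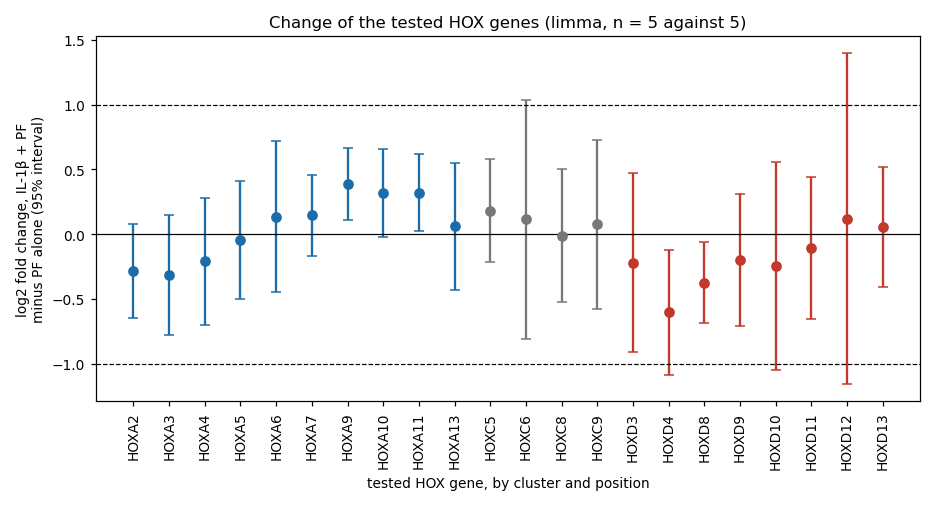
Log2 fold change (IL-1β plus PF-06650833 minus PF-06650833 alone, n = 5 against 5) of 22 tested HOX genes on the deposited scale, ordered by cluster (HOXA blue, HOXC grey, HOXD red) and gene number; bars are 95% intervals from limma and dashed lines mark the minimum fold change of 1. The points run from -0.60 for HOXD4 to 0.39 for HOXA9, and none reaches a dashed line.

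HOXA9, a gene also known from blood stem cells and leukaemia, came closest to a call. Its log2 values in lines 1 to 5 were 9.61, 10.01, 9.78, 9.48 and 9.80 with PF-06650833 alone and 10.10, 10.13, 10.43, 9.93 and 10.03 with IL-1β plus PF-06650833. Every line was higher with IL-1β, by 0.12 in line 2 and 0.65 in line 3, but the groups overlapped, since line 2 without IL-1β stood above line 4 with it. The log2 fold change was 0.39 ± 0.13 (SE), with an adjusted p of 0.0620 in limma. With the line as a replicate block the adjusted p of limma was 0.0342, so that HOXA9 passed on the adjusted p alone, as 10.9% of all tested genes did upwards and 11.3% downwards in that fit, still under the minimum fold change. Leaving out line 1, 2, 3, 4 or 5 gave adjusted p-values of 0.117, 0.0486, 0.0883, 0.0682 and 0.0626 with the block in limma, so that the pass was lost when line 1, 3, 4 or 5 was left out. Without the block, leaving out the library of line 2 with PF-06650833 alone gave an adjusted p of 0.0425 in limma, and leaving out that of line 4 with IL-1β plus PF-06650833 gave 0.0441, whereas the other 8 libraries gave 0.0848 to 0.135.

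HOXD4 had the largest fold change of a HOX gene in size on the deposited scale, and it was below 0. Its log2 values in lines 1 to 5 were 7.13, 7.76, 6.76, 7.18 and 7.46 with PF-06650833 alone and 6.72, 6.32, 6.64, 7.01 and 6.57 with IL-1β plus PF-06650833. It was lower with IL-1β in 5 of 5 lines, most in line 2 (-1.43) and least in line 3 (-0.12), and the groups overlapped. The log2 fold change was -0.60 ± 0.22 (SE), with an adjusted p of 0.0906 in limma without the block and 0.0938 with it. Without the library of line 3 with PF-06650833 alone the change was -0.73 and the adjusted p of limma 0.0448, under the minimum fold change.

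HOXD8, its neighbour, was also lower with IL-1β in every line. Its log2 values were 10.02, 9.99, 9.56, 9.78 and 9.86 with PF-06650833 alone and 9.41, 9.05, 9.52, 9.64 and 9.71 with IL-1β plus PF-06650833 in lines 1 to 5. Lines 1 and 2 differed the most, and the groups overlapped in the range from 9.56 to 9.71. The log2 fold change was -0.38 ± 0.14 (SE), with an adjusted p of 0.103 in limma.

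HOXA10 and HOXA11 had changes of similar size to HOXA9 but not in every line. HOXA10 had log2 values of 11.00, 11.28, 11.04, 10.64 and 10.96 with PF-06650833 alone and 11.52, 11.17, 11.63, 11.33 and 10.88 with IL-1β plus PF-06650833, higher in lines 1, 3 and 4 and lower in lines 2 and 5 (log2 fold change 0.32, adjusted p 0.192 in limma). HOXA11 had 9.97, 10.00, 9.51, 9.79 and 10.07 and then 10.21, 9.92, 10.39, 10.37 and 10.03, with the same 3 lines higher (0.32, adjusted p 0.141 in limma). Neither passed the threshold after adjustment.

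The fold changes tended to be higher towards the high-numbered end of HOXA and HOXD, though not from gene to gene. In HOXA the log2 fold changes of HOXA2 and HOXA3 were -0.29 and -0.31, those of HOXA4 and HOXA5 were -0.21 and -0.05, those of HOXA6 and HOXA7 were 0.14 and 0.15, and those of HOXA9, HOXA10, HOXA11 and HOXA13 were 0.39, 0.32, 0.32 and 0.06. None of these differences passed the test, and the highest was that of HOXA9, not of the last gene. Across these 10 HOXA genes the change and the gene's place in the cluster had a Spearman correlation of 0.758 (Pearson 0.785). In HOXD the changes were -0.22 for HOXD3, -0.60 and -0.38 for HOXD4 and HOXD8, -0.20, -0.25 and -0.11 for HOXD9, HOXD10 and HOXD11, and 0.12 and 0.06 for HOXD12 and HOXD13, with a Spearman correlation of 0.786 across 8 genes (Pearson 0.761). The 4 tested genes of HOXA groups 9 to 13 were all above 0, whereas in HOXD 2 of the 5 tested genes of groups 9 to 13 were above 0. These are correlations across genes that share the same 10 libraries, and in part the same stretches of sequence, and they are given as a description.

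The order held in sign within every line, but with very different strength. The Spearman correlation between place and change across the same HOXA genes was 0.612, 0.564, 0.806, 0.648 and 0.261 in lines 1 to 5, and across the HOXD genes it was 0.595, 0.238, 0.619, 0.333 and 0.690. On back-transformed counts the correlation over the mean of the lines was 0.782 in HOXA and 0.929 in HOXD. In HOXA the change also went with the gene's own mean log2 value (Spearman 0.867 across 10 genes), so that place and level cannot be told apart there. In HOXD the correlation of change with level was 0.0952 across 8 genes, but place and level were correlated there too (Spearman 0.595). HOXA2 had at most 10 reads in a library, and HOXD3 at most 14.

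HOXA took a larger share of the HOX reads with IL-1β in every line. HOXA took 41.3%, 39.3%, 37.7%, 32.4% and 39.9% of the HOX reads in lines 1 to 5 with PF-06650833 alone and 49.5%, 53.5%, 41.2%, 33.2% and 45.1% with IL-1β plus PF-06650833. The share was higher with IL-1β in 5 of 5 lines, by 8.18, 14.1, 3.55, 0.816 and 5.25 percentage points. HOXD took nearly all the rest, so that its lower share is the same observation. In estimated reads not scaled to depth, HOXD was higher with IL-1β in lines 3 and 4, and HOXA was lower in line 5. The mean share of HOXA was 38.1% ± 3.46 (SD, n = 5) without and 44.5% ± 7.82 (SD, n = 5) with IL-1β, and the groups overlapped, with line 4 differing least. Long and highly read genes weigh most in this share, and it is given with no test.

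**Figure D3:**
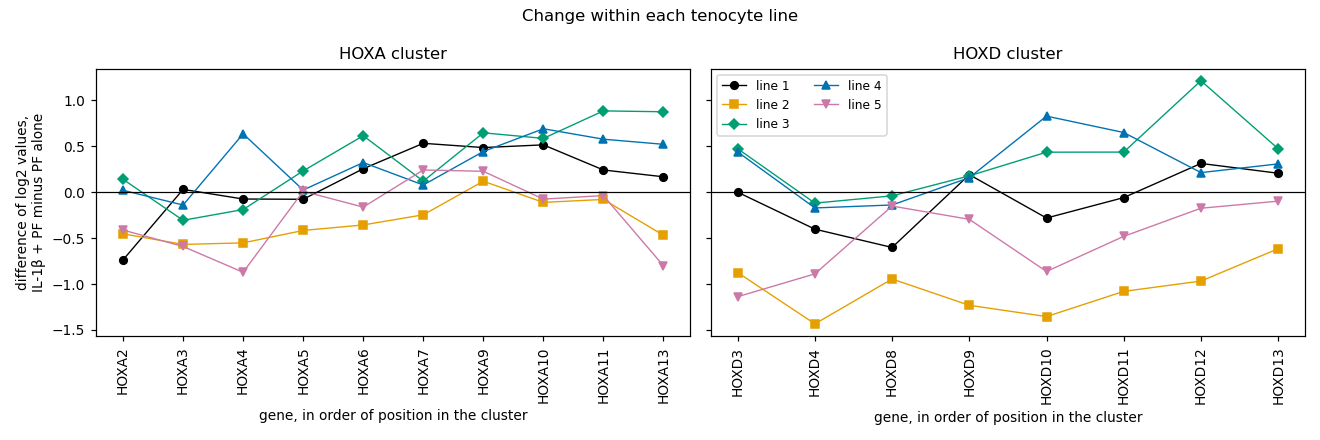
Difference of log2 values (IL-1β plus PF-06650833 minus PF-06650833 alone) within each of the 5 tenocyte lines, for 10 HOXA genes (left) and the 8 tested HOXD genes (right), in order of position in the cluster. From HOXD10 to HOXD13 lines 3 and 4 lie above 0 and lines 2 and 5 below it.

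The lines went in opposite directions in the high-numbered HOXD genes. For HOXD10, a gene of limb patterning, the log2 values of lines 1 to 5 were 10.78, 11.29, 11.22, 11.15 and 10.96 with PF-06650833 alone, and 10.50, 9.94, 11.66, 11.98 and 10.09 with IL-1β plus PF-06650833. The lines were thus within 0.51 of each other without IL-1β and spread over 2.05 with it, with an SD of 0.21 and 0.93 (n = 5 each). The differences within lines were -0.28, -1.35, 0.44, 0.83 and -0.86, higher in lines 3 and 4 and lower in the others. HOXD11, a gene of the forearm and shank, had differences of -0.06, -1.08, 0.44, 0.65 and -0.48, and HOXD13 of 0.21, -0.62, 0.47, 0.31 and -0.10.

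HOXD12 and HOXD9 behaved in part like their neighbours. The differences of HOXD12 in lines 1 to 5 were 0.31, -0.97, 1.21, 0.21 and -0.17, and those of HOXD9 were 0.19, -1.23, 0.18, 0.16 and -0.30. Line 2 had the lowest difference in all 5 genes from HOXD9 to HOXD13, and in HOXD9 lines 1, 3 and 4 were close together. EVX2, beyond the end of the cluster, had differences of 0.59, -0.79, 0.64, -0.02 and -0.38. Among the HOX genes of the other cluster, HOXA13 had 0.17, -0.47, 0.88, 0.52 and -0.80, with the same signs in all lines as HOXD12 and HOXD13.

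The spread of these differences was set beside that of all genes. The SD of the difference over the 5 lines had a median of 0.43 over the 23 tested HOX genes and of 0.34 over all tested genes on the log2 scale. HOXD10 stood at the 94.2 percentile of all tested genes in this spread, HOXD12 at the 91.4 and HOXD11 at the 87.7 percentile. With 1 library for each line and treatment, a response that differs between lines and the variation between cultures of 1 line cannot be told apart. These genes were singled out after their values had been seen.

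The lines as such were then compared, with 2 libraries per line and the treatment as a covariate. A gene was called different between lines at an adjusted p below 0.05 in limma's moderated F test and a range of the 5 line means of at least 1 on the log2 scale. Of the 23 tested HOX genes 0 were called, where 2.69% of all tested genes were (484), and the adjusted p-values ran from 0.0957 to 0.973. The SD of the line means had a median of 0.25 over the HOX genes and of 0.23 over all tested genes. The line means ranged over at least 1 in 5 HOX genes, namely HOXC6 (1.61), HOXC9 (1.08), HOXD3 (1.05), HOXD10 (1.04) and HOXD12 (2.41).

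HOXD12 had the widest range of line means of the HOX genes. Its log2 values in lines 1 to 5 were 5.55, 6.22, 5.88, 8.0 and 6.57 with PF-06650833 alone and 5.86, 5.25, 7.10, 8.22 and 6.40 with IL-1β plus PF-06650833. Line 4 was the highest in both groups, with 217 and 196 reads, where the other lines had 17 to 102. The adjusted p of the line test in limma was 0.0957, and 0.126 on back-transformed counts.

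HOXC9 and HOXC6 came next by the p of the line test, at very low counts. HOXC9 had log2 values of 3.43, 4.55, 3.43, 3.43 and 4.33 in lines 1 to 5 with PF-06650833 alone and 4.12, 4.47, 3.43, 3.43 and 4.10 with IL-1β plus PF-06650833, so that lines 3 and 4 had 0 reads in both groups and lines 2 and 5 had 2 to 5 (line adjusted p 0.172 in limma). HOXC6 had 3.89, 4.94, 4.37, 4.28 and 5.57 and then 3.67, 5.85, 4.30, 5.16 and 4.64, lowest in line 1 in both groups, with at most 1 read there (line adjusted p 0.251 in limma). At most 33 reads stand behind these differences.

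HOXA5 and HOXA6 completed the 5 genes with the smallest p of the line test. HOXA5 had 7.32, 8.20, 7.78, 7.97 and 7.77 in lines 1 to 5 with PF-06650833 alone and 7.24, 7.79, 8.02, 8.0 and 7.78 with IL-1β plus PF-06650833, lowest in line 1 in both groups, while the other 4 lines overlapped (line adjusted p 0.270 in limma). HOXA6 had 6.49, 7.36, 6.98, 7.41 and 6.90 and then 6.75, 7.00, 7.59, 7.73 and 6.74, with line 4 the highest in both groups (line adjusted p 0.283 in limma). Over the 23 tested genes, line 4 had the highest mean for 7 and the lowest for 1, and line 1 had the highest for 1 and the lowest for 8.

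**Figure D4:**
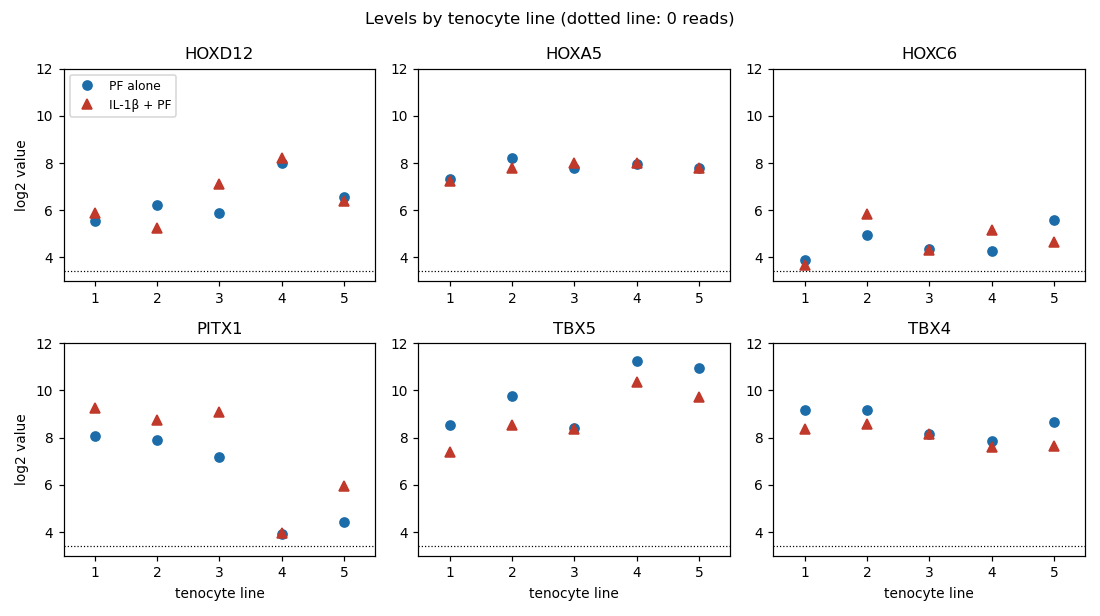
Variance-stabilized log2 values of HOXD12, HOXA5, HOXC6, PITX1, TBX5 and TBX4 in each tenocyte line with PF-06650833 alone (blue circles) and IL-1β plus PF-06650833 (red triangles); the dotted line is 0 reads. Line 4 stands highest in HOXD12 and TBX5 and lowest in PITX1, where lines 1 to 3 lie 1.22 or more above lines 4 and 5.

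Of 3 genes of forelimb and hindlimb identity, 2 were called different between lines, where 2.69% of all tested genes were. PITX1, a homeobox gene that specifies the hindlimb, had log2 values of 8.09, 7.89, 7.18, 3.90 and 4.45 in lines 1 to 5 with PF-06650833 alone and 9.24, 8.75, 9.10, 3.96 and 5.95 with IL-1β plus PF-06650833. Lines 1, 2 and 3 had 93 to 473 reads, line 4 had 1 read in each group, and line 5 had 5 and 37. The range of the line means was 4.73, with a line adjusted p of 0.00653 in limma. PITX1 was higher with IL-1β in 5 of 5 lines (log2 fold change 1.10, adjusted p 0.586 in limma), and with the replicate block its adjusted p was 0.0229 in limma, which passed both thresholds.

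TBX5, a T-box gene of the forelimb, ran the other way. Its log2 values were 8.54, 9.76, 8.40, 11.25 and 10.97 in lines 1 to 5 with PF-06650833 alone and 7.41, 8.55, 8.36, 10.36 and 9.72 with IL-1β plus PF-06650833, highest in line 4 and next in line 5 in both groups. The range of the line means was 2.83, with a line adjusted p of 0.0129 in limma. TBX5 was lower with IL-1β in 5 of 5 lines (log2 fold change -0.90, adjusted p 0.414 in limma without and 0.0121 with the replicate block). TBX4, a T-box gene of the hindlimb, had 9.15, 9.19, 8.18, 7.85 and 8.65 and then 8.37, 8.57, 8.15, 7.63 and 7.64, and was not called different between lines (range 1.14, line adjusted p 0.146 in limma). No tested HOX gene had a line adjusted p below that of PITX1 or TBX5, and the limb of origin of the lines was not given in the sources used here.

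RNAs from within the clusters were read beside the HOX genes. In the RefSeq order of the assembly TB-T2T, 7 long non-coding RNA rows of the table start between HOX genes of a cluster. Of them 3 had reads in all 10 libraries and 3 had none. The 4 microRNA rows that start between HOX genes were at 0 in all 10 libraries. MIR615, which starts after HOXC5 and is not in this count, was also at 0 throughout. The libraries were made for mRNA, so the microRNA rows cannot show whether these microRNAs were present. LOC106783067, between HOXA11 and HOXA13, had log2 values from 9.84 to 10.33 without IL-1β and from 10.39 to 10.67 with it. The groups did not overlap, all 5 lines were higher, and the log2 fold change was 0.47 ± 0.11 (SE), with an adjusted p of 0.0150 in limma, under the minimum fold change. Over all tested genes the groups did not overlap for 12.7%, and all 5 lines went the same way for 32.7%. On the adjusted p of limma alone 7.57% of all tested genes were higher. LOC106783068, beside HOXA2, was higher in 5 of 5 lines (0.35, adjusted p 0.272 in limma), and LOC100629967, between HOXD4 and HOXD8, had a change of 0.13 (adjusted p 0.655 in limma). These RNAs were chosen after their values had been seen. The counting was not stated to use strand, so reads of such RNAs and of a HOX gene on the other strand cannot be told apart.

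Of the partners and silencers of HOX genes, none were called. Of the TALE cofactors 0 of 8 tested genes were called, where 6.68% of all tested genes were. On the adjusted p of limma alone, by which 7.57% of all tested genes were higher and 7.89% lower, PBX2 was higher (log2 fold change 0.54, adjusted p 0.00751), PKNOX1 was higher (0.53, 0.0334) and PBX3 lower (-0.53, 0.0449). MEIS1, whose protein pairs with HOX9 and HOX10 proteins, had differences within lines of 0.03, -0.57, 0.61, 1.22 and -0.47, and MEIS3 of -0.06, -0.70, 0.43, 0.25 and -0.49, both with lines 3 and 4 higher and lines 2 and 5 lower. Of the Polycomb and Trithorax genes, which keep HOX clusters silent or open, 0 of 36 were called, where 6.68% of all tested genes were. On the adjusted p of limma alone 2 of 36 were higher and 2 lower, where 7.57% and 7.89% of all tested genes were, all 4 under the minimum fold change: KDM5B (0.80) and CBX8 (0.54) were higher, and RNF2 (-0.64) and RBBP7 (-0.42) lower. With the replicate block 0 genes of either list were called. On the adjusted p alone that fit had 3 TALE cofactors higher and 1 lower, and 3 Polycomb and Trithorax genes higher and 5 lower. Over all tested genes 10.9% were higher and 11.3% lower in it. The median log2 fold change was 0.24 for the TALE cofactors and 0.06 for the Polycomb and Trithorax genes, against -0.01 for all tested genes. PBX2, PKNOX1, PBX3, MEIS1, MEIS3 and the 4 Polycomb and Trithorax genes were named after their values had been seen.

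Retinoic acid is an activator of HOX clusters, and 3 of 16 tested retinoid and caudal genes were called, 1 higher and 2 lower, beside 6.68% of all tested genes. CRABP1, which binds retinoic acid in the cytoplasm, fell (log2 fold change -3.91 ± 0.53 (SE), adjusted p 0.000996 in limma), from a mean of 9.70 ± 0.89 (SD, n = 5) to 5.79 ± 1.02 (SD, n = 5). CYP26A1, which breaks retinoic acid down, is the other of the lower genes (adjusted p 0.0169 in limma), but it was tested only because all 5 libraries without IL-1β had reads, at most 31, while 4 of the 5 with IL-1β had 0, and no fold is given. With the replicate block 2 genes of the list were called higher and 3 lower, beside 8.26% of all tested genes in that fit. The caudal genes CDX1 and CDX2 had 0 reads in all libraries and CDX4 at most 1.

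Of the limb patterning genes other than HOX, 10 of 29 tested genes were called, 3 higher and 7 lower, beside 6.68% of all tested genes, with a median log2 fold change of -0.34. TBX3, a T-box gene of the limb margins, rose by 1.74 (log2, adjusted p 0.000398 in limma). FGF10, the growth factor that starts limb outgrowth, fell by 1.44 (adjusted p 0.00224 in limma), DLX5, a homeobox gene of limb and bone, fell by 1.64 (0.00534) and GREM1, a BMP antagonist, fell by 2.14 (0.00987). With the replicate block 3 were called higher and 9 lower, beside 8.26% of all tested genes in that fit. Of 25 tested genes that flank the HOX clusters or lie near them, 1 was called, SNX10, a sorting nexin, which fell by 1.31 (adjusted p 0.0370 in limma), and the median log2 fold change of these neighbours was 0.09.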

How the data were processed

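Equine tenocyte RNA was sequenced from 10 libraries, 5 per group. The authors checked reads with FastQC (version 0.11.9), quantified them on the EquCab3.0 transcriptome with Salmon (version 1.8), correcting for GC bias, and deposited normalized log2 values with a stabilized variance; their sheet lists more libraries than these 10. The transformation is not named and was recognised from its shared lowest value, 3.433. Inverting it gave normalized counts, and the spacing of low values (71.4% to 87.9% within 0.15 of a whole read, 30% if even) gave reads.

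The log2 values of 17992 genes, those with reads in 5 or more libraries, were fitted with limma 3.58.1 in R 4.3.3, using a trend of variance on mean, Benjamini-Hochberg adjustment over all of them and no line term, since the study names none. The thresholds are those the study used with DESeq2 (version 1.36), which was not run here. The same number stands for the same horse in both groups, by the library titles. Deviations from the group means correlated by 0.367 to 0.506 within a line. The average between lines, -0.107, follows largely from taking deviations from the group mean and adds little. The fit with the line as a replicate block is given where it changes a call. Without the line term, the p-values set a change against the spread among the lines within a group. With the block, and in the line test, they use the spread left after line and treatment. Fits were tested on simulated data. Genes named with every value are HOX genes called with or without the block, the 5 with the smallest line p, and PITX1, TBX5 and TBX4, and of other lists up to 4 called genes by the smallest adjusted p. HOXD4, HOXD8, HOXA10, HOXA11 and HOXD10 are also given with every value and were chosen after their values were seen. The HOX rule, lists and tests were chosen with earlier results of these data known. RefSeq genes of the assembly TB-T2T served for names and gene order only. Counts cover every member, while the values of 1 HOX gene and 1 gene of another list are not reported here, and the correlations along HOXA leave that HOX gene out.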

Additional observations from a re-analysis of the deposited data

Results flagged for a closer look

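In 60 groups of 5 libraries (both groups for the 23 tested HOX genes, TBX4, TBX5, PITX1, EVX2 and 3 long non-coding RNAs of the clusters), the highest or lowest library was set against the others, and 2 stood apart by Dixon's criterion, where chance gives about 1 in 20, or 3. HOXA2 in line 1 with PF-06650833 alone had a log2 value of 4.86, above 4.42 to 4.54 in the other 4 lines of the group, on 10 reads. LOC100629967, a long non-coding RNA between HOXD4 and HOXD8, had 7.13 in line 3 with PF-06650833 alone, below 7.58 to 7.70 in the other 4, on 90 reads.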

How the results depend on the processing

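The count of HOX genes called for the treatment was 0 with the replicate block, at a stricter adjusted p, with no minimum fold change, under both other filters, on back-transformed counts with either pseudocount, with median centring, quantile normalization, no trend or a robust trend, and without each library or line. It was 1 (HOXA9) when the replicate block was joined to a call on adjusted p alone, an alternative added after seeing the data, and 0 to 1 when each line was left out of that fit (1 without line 2). The count of HOX genes called different between lines was 0 under every alternative run. Of the 23 fold changes, 11 had the same sign under every alternative and 12 another sign under at least 1, none of them a called gene. The count over all tested genes was 1202, 719 to 3996 under the alternatives and 762 to 1422 without each library or line. Median centring moved the median of all genes from -0.01 to 0.02 on the log2 scale, and quantile normalization left it at -0.01.

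Variance stabilization compresses low values: the log2 fold change of HOXA2 was -0.76 on back-transformed counts, with at most 10 reads a library, and HOXB and most HOXC genes could not be tested at this depth. The replicate block alone changed no call of a HOX gene.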
